A study of Mus musculus with 2 samples.

Results

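The 34 genes described here encode proteins of G2 phase and mitosis, the last steps of the cell division cycle. They were chosen by gene symbol from a set list, and all 34 were found among the 32285 genes of the count tables. The cells were live leukocytes of the host mouse, sorted for the surface protein CD45 from tumours that the mouse melanoma line B16-F10 had formed under the skin by day 14. In the knockout group the B16-F10 line carried a knockout of FDPS, the farnesyl diphosphate synthase of the mevalonate pathway, which also feeds cholesterol synthesis. The control group carries the genotype label WT and a title that reads B16-VC, which the labels do not spell out. Each group had 3 tumours and gave 1 droplet single-cell RNA library, with no label that ties a cell to a tumour. With 1 library per group no test between the groups was possible, so each comparison is of 2 libraries. The intervals (95%) cover counting error only. They are exact Poisson for summed molecules, Clopper-Pearson for shares of cells and a normal approximation on the log scale for ratios. The labels give the mice no age, sex or strain, and whether the line was 1 clone is not stated.

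A cell that leaves S phase raises cyclin A and cyclin B, which bind and activate the kinase CDK1 and so drive entry into mitosis. Aurora and Polo-like kinases, kinesin motors and kinetochore proteins then build the spindle and hold chromosomes to it, until the anaphase-promoting complex (APC/C) marks the cyclins for destruction and cytokinesis splits the cell. Most of these genes are transcribed mainly in G2 and M, so that their messenger RNAs mark cells in cycle. In tumours, activated CD8 T cells divide as they expand, and some dendritic cells and macrophages also renew themselves locally, whereas mature neutrophils do not divide.

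Transcription of many G2 and M genes is known to be timed by 2 short promoter elements, the cell cycle genes homology region (CHR) and the CCAAT box bound by NF-Y. The letters TTTGAA or TTTAAA, as in a CHR, and CCAAT were searched on both strands of the 250 bases upstream of each RefSeq start site (GRCm38.p6). Promoters were found for 28 of the 34 genes, 29 in all because Ect2 had 2. TTTGAA or TTTAAA occurred in 16 of 29 (55.2%) against 25.2% of all 32851 promoters of that table, and CCAAT in 22 of 29 (75.9%) against 33.8%. Both words occurred in 14 of 29 (48.3%) against 8.78%. A match describes the letters and is not a measured binding site.

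The 150 bases before the start site are shown for the 3 genes that lay lowest in the knockout library relative to the control library in CD8 T cells (Cdk1, Ccnb1 and Ube2c) and the 3 that lay highest (Anln, Diaph3 and Kif11). They were chosen after those values were seen. Each is written 5′ to 3′ on the strand of its gene, and capitals mark the CHR-like and CCAAT letters on either strand. On the opposite strand TTTGAA reads TTCAAA, while CCAAT reads ATTGG there. The windows are Cdk1 chr10:69352913-69353062 (minus strand), Ccnb1 chr13:100786487-100786636 (minus), Ube2c chr2:164769779-164769928 (plus), Anln chr9:22389207-22389356 (minus), Diaph3 chr14:87141225-87141374 (minus) and Kif11 chr19:37376232-37376381 (plus).
Cdk1: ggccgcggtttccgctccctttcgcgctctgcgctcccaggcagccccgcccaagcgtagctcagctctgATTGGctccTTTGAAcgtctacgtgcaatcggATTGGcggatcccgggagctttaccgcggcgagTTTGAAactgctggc
Ccnb1: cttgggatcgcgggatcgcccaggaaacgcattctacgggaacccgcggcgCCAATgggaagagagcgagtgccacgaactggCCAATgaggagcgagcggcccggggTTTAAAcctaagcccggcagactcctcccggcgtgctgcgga
Ube2c: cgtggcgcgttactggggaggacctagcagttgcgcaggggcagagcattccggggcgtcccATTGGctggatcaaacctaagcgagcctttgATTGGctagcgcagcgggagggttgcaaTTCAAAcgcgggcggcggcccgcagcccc
Anln: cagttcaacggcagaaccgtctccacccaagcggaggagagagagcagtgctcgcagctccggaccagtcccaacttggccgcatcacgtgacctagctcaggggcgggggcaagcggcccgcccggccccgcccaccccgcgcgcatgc
Diaph3: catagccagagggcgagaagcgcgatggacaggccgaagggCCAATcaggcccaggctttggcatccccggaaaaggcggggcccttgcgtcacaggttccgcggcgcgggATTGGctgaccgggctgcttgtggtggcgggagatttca
Kif11: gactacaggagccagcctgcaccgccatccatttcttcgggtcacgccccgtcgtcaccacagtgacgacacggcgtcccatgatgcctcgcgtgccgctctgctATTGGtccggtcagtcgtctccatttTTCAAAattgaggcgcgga
Each of the 3 lowest genes had at least 1 CHR-like word and 2 CCAAT words in the window shown. Of the 3 highest, Anln had neither, Diaph3 had 2 CCAAT words and no CHR-like word, and Kif11 had 1 of each. Genes outside these did not all follow that contrast in the 250 bases searched. Mki67, higher in knockout CD8 T cells (log2 ratio 0.20), had 2 CHR-like and 3 CCAAT words. Ect2 (0.05) had 1 CHR-like word and 2 or 3 CCAAT words, by promoter. Birc5, which was lower (-0.53), had 1 CHR-like word and 0 CCAAT words. Whether the words go with the ratio over the whole set was not tested.

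The knockout library held 127186298 unique molecular identifiers (UMIs, counts of single RNA molecules) over 9130 barcodes, and the control library 208936136 over 10882. After filters on genes, mitochondrial RNA and doublets, 8062 and 8595 cells were analysed, and 30 barcodes occurred in both libraries. Cells were sorted into classes by 19 sets of marker genes, and 22.8% of knockout and 15.7% of control cells fitted no class. Ptprc, which encodes CD45, was seen in 97.8% and 89.4% of analysed cells. Fdps itself stood at 89.2 CPM (UMIs scaled so that every class of each library has the same sum) in the knockout library and 405 CPM in the control library in the 19 and 371 cells with melanoma markers, and was also lower in CD8 T cells (27.9 and 78.3 CPM). Where the edit lies in the gene is not given, so these counts do not check the knockout. Melanoma marker RNA was higher in the control library in each immune class that both libraries held, and the melanocyte genes Mlana, Pmel, Dct, Tyrp1, Tyr and Sox10 together made up 7.47 CPM of knockout and 73.7 CPM of control CD8 T cells. In monocytes and macrophages they made up 28.4 and 163 CPM. At the proportions seen in the cells gated as melanoma, this RNA would carry 0.570 and 11.7 CPM of the 34 genes in CD8 T cells and 2.17 and 25.8 CPM in monocytes and macrophages.

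To find cells in division independently of depth, each cell was thinned at random to 3000 UMIs, and a cell was called dividing when at least 4 of the 34 genes then had a UMI. This is a range of a score and not a cell type. CD8 T cells held the largest number of such cells in both libraries, with 628 of 1894 cells (33.2%, 31.0 to 35.3) in the knockout against 914 of 1718 (53.2%, 50.8 to 55.6) in the control library. The knockout share was 0.623 times the control share (0.577 to 0.674), and the intervals lay far apart. Near the cut, 110 knockout and 138 control CD8 T cells had 3 genes and 50 and 78 had 4. At the upper end, 21.2% of knockout and 33.2% of control CD8 T cells had 10 or more of the 34 genes, and 18.8% and 10.1% had none. Without thinning the shares were 55.5% and 82.6%, with medians of 13418.5 and 22054 UMIs per CD8 T cell.

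Among monocytes and macrophages, 35 of 846 knockout cells (4.14%, 2.90 to 5.71) and 561 of 3647 control cells (15.4%, 14.2 to 16.6) were called dividing, a ratio of 0.269 (0.193 to 0.375). The difference lay in cells that scored higher for macrophage markers (C1qa, C1qb, C1qc, Apoe, Mrc1 and Adgre1), of which 33 of 584 (5.65%, 3.92 to 7.84) and 551 of 2588 (21.3%, 19.7 to 22.9) were called. Cells that scored higher for monocyte markers such as Ly6c2 and Ccr2 were rarely called in either library, 2 of 262 (0.763%, 0.0926 to 2.73) and 10 of 1059 (0.944%, 0.454 to 1.73). The split between the scores was made after the data were seen. T cells that met none of the CD8, conventional CD4 and regulatory T cell gates are named other T cells here. They gave 69 of 837 (8.24%, 6.47 to 10.3) and 51 of 192 (26.6%, 20.5 to 33.4), a ratio of 0.310 (0.224 to 0.430).

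In several classes the counting intervals of the libraries overlapped. Conventional type 1 dendritic cells (cDC1), which present antigen to CD8 T cells, were called dividing in 63 of 272 knockout cells (23.2%, 18.3 to 28.6) and 38 of 134 control cells (28.4%, 20.9 to 36.8), a ratio of 0.817 (0.578 to 1.15). That ratio lay below 1 with its interval in 4 alternatives: 0.723 (0.529 to 0.987) at 5000 UMIs, 0.728 (0.603 to 0.878) without thinning, 0.705 (0.519 to 0.956) with a mitochondrial limit of 20% and 0.678 (0.471 to 0.975) in cells with no melanoma marker UMI. Regulatory T cells gave 21 of 148 (14.2%) and 16 of 66 (24.2%), a ratio of 0.585 (0.327 to 1.05). Conventional CD4 T cells gave 58 of 623 (9.31%) and 4 of 49 (8.16%), and cDC2 15 of 167 (8.98%) and 2 of 33 (6.06%). With 66, 49 and 33 control cells, the counting intervals of these 3 classes were wide. Whatever the number of cells, 1 library per group cannot show a difference between the groups. NK cells, B cells, plasmacytoid and mature dendritic cells were called in at most 5.50% of cells of either library. Neutrophils, which should lack these transcripts, set the background: 0 of 72 knockout cells, which allows a share of up to 4.17% by a floor of 3 cells and 4.99% by the exact interval, and 3 of 96 control cells (3.12%, 0.649 to 8.86), with medians of 4915.5 and 4433 UMIs before thinning. The knockout share of monocytes and macrophages (4.14%) and both NK shares (3.49% and 1.55%) fall below these upper limits. The limits are wide because they rest on 72 and 96 neutrophils, and they are not measured shares. Called knockout monocytes and macrophages had a median of 11 of the 34 genes, and the called control neutrophils 4. Cells with 10 or more of the 34 genes, of which neutrophils had 0 in either library, made up 2.36% of knockout and 7.13% of control monocytes and macrophages, and 1.66% of knockout and 0% of control NK cells.

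**Figure D1:**
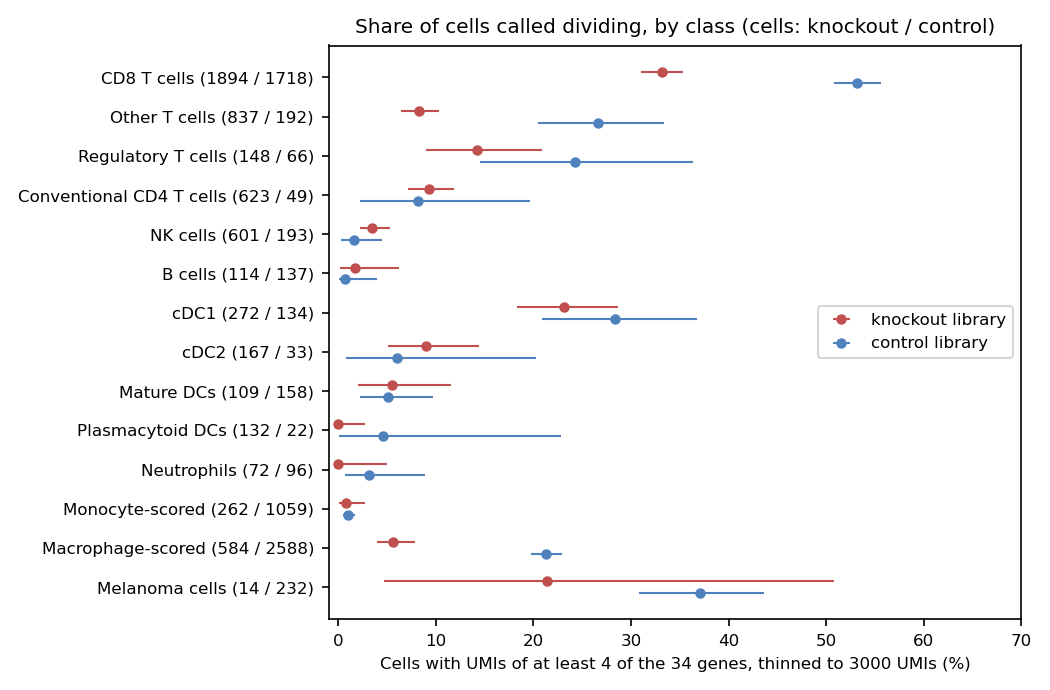
Share of cells called dividing (percent of cells thinned to 3000 UMIs, x axis) in each class, with 1 point per library and exact 95% counting intervals; the numbers beside each class are the knockout and control cells. CD8 T cells, other T cells and macrophage-scored cells show separate intervals, with the knockout library lower.

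The share of dividing CD8 T cells was lower in the knockout library at each state of the cells that could be compared, though the mix of states also differed. The states were set after the data were seen. CD8 T cells with a UMI of Tcf7, a transcription factor of naive and memory-like T cells, numbered 353 in the knockout against 59 in the control library and were called dividing in 16 (4.53%, 2.61 to 7.26) and 5 (8.47%, 2.81 to 18.7). Cells with a UMI of Gzmc, Gzmd, Gzme or Gzmf, granzymes of strongly activated killer cells, numbered 13 and 338 and gave 46.2% (19.2 to 74.9) and 58.9% (53.4 to 64.2). Intervals overlapped in both of these. Cells with neither gave 606 of 1528 (39.7%, 37.2 to 42.2) and 710 of 1321 (53.7%, 51.0 to 56.5), a ratio of 0.738 (0.681 to 0.799), which is nearer to 1 than the ratio over all CD8 T cells. Split by Gzmb, the main granzyme of effector cells, the shares were 40.2% and 56.2% with a UMI and 28.2% and 43.8% without. Among CD8 T cells with no melanoma marker UMI the shares were 33.4% of 1839 and 57.1% of 1268 cells, and among such monocytes and macrophages 4.38% of 776 and 15.6% of 2147.

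**Figure D2:**
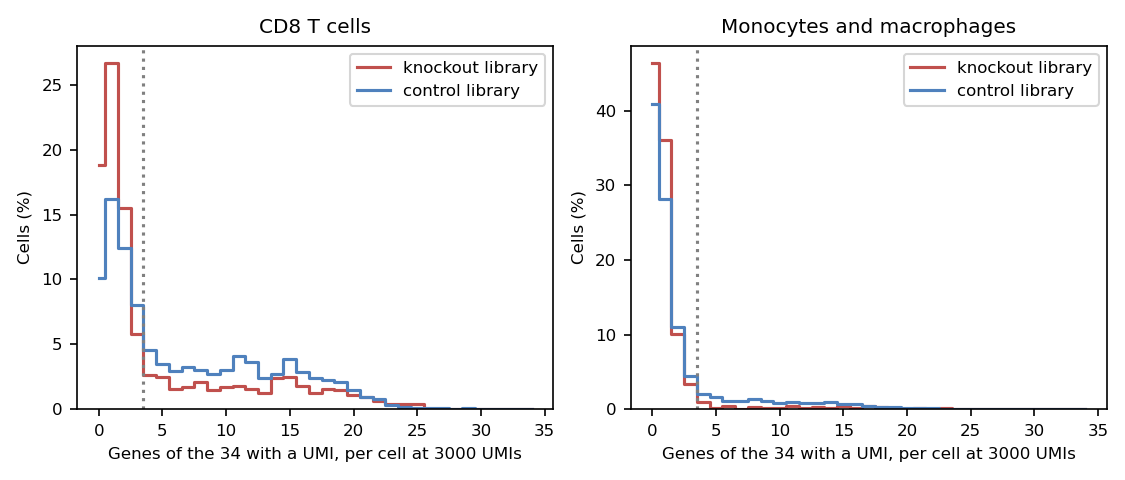
Number of the 34 genes with a UMI per cell at 3000 UMIs (x axis) against the percent of cells (y axis) in CD8 T cells and in monocytes and macrophages, 1 line per library; the dotted line is the cut for a dividing call. Both classes peak at 0 or 1 gene and have a long tail to the right of the cut. From 4 to 20 genes the knockout line lies below the control line in both, and beyond that the CD8 T cell lines cross, with 0.370% of knockout and 0.175% of control cells at 24 genes.

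The levels of the genes in a class were compared next, as UMIs summed over all its cells. The 34 genes together made up 4112 CPM of knockout and 4753 CPM of control CD8 T cells, a ratio of 0.865 (0.859 to 0.871), a smaller gap than that between the shares of dividing cells. The 6 macrophage markers made up 27.8 and 112 CPM of these cells, and the regulatory T cell markers Ikzf2 and Il2ra were also lower in the knockout library (253 and 471 CPM, 35.3 and 102 CPM), with Foxp3 at 0 in both by the gate. Their part in the result was not tested. Dividing cells were rich in RNA, with a median of 25698.5 UMIs against 11616.5 in the other CD8 T cells of the knockout library and 32944.5 against 15817 in the control library, and they held 93.6% and 95.2% of the UMIs of the 34 genes in cells of 3000 or more UMIs. When each cell was given the same weight, the levels were 2709 and 3793 CPM, a ratio of 0.714. Differences for single genes are given as log2((knockout CPM + 5)/(control CPM + 5)), and a gene is counted as lower or higher past 1.5-fold on that scale. In CD8 T cells 3 of 34 genes were lower past 1.5-fold, where 7.27% of all 8224 genes measured at a mean of 10 CPM or more were, and 0 were higher, where 17.3% of all genes were. The median over the 34 genes was -0.27 and that over all genes 0.14, and 25 of the 34 lay below 0. The count of lower genes was 8 with median-ratio scaling and 15 with equal weight per cell. The median over all genes was then -0.002 and 0.11, and the share of all genes past 1.5-fold was not counted in these settings.

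The regulators of mitotic entry lay lowest. Cdk1, the kinase that triggers mitosis, stood at 83.3 CPM (80.2 to 86.4) in the knockout against 156 (153 to 160.04) in the control library, a log2 ratio of -0.87. Ccnb1, its cyclin B1 partner, stood at 39.1 (37.0 to 41.2) and 69.3 CPM (67.0 to 71.8), -0.75. All 4 genes of this group, with the cyclins Ccna2 and Ccnb2, lay below 0, and their summed level was 0.623 times that of the control library (0.608 to 0.638). The APC/C group was next: Ube2c, the enzyme that adds ubiquitin for the APC/C, stood at 218 (213 to 223) and 332 CPM (326 to 337), -0.59, and with the APC/C activator Cdc20 at -0.56 the group's ratio was 0.657 (0.641 to 0.674). The intervals of the libraries did not overlap for any of these genes.

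Mitotic kinases and checkpoint genes (Aurka, Aurkb, Plk1, Bub1, Bub1b and Birc5) had a summed ratio of 0.745 (0.729 to 0.761), and all 6 lay below 0. Birc5, the survivin subunit of the chromosomal passenger complex, stood at 144 CPM (139.7 to 148) in the knockout against 209.7 (206 to 214) in the control library, -0.53. Bub1b, a kinase-like checkpoint protein, was nearly level at -0.07. Spindle factors (Tpx2, Nusap1, Hmmr, Tacc3, Ckap2l and Stmn1) had a ratio of 0.829 (0.816 to 0.842) and ran from -0.42 for Tacc3 to -0.04 for Ckap2l. Stmn1, which binds tubulin and destabilises microtubules, stood at 341 (334 to 347) and 421 CPM (415 to 427), -0.30. Centromere genes had a ratio of 0.799 (0.782 to 0.815), with Cenpa, the centromeric histone variant, at -0.48 and Knl1, the kinetochore scaffold, at -0.01.

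Other roles ran level or the opposite way. Mki67, which coats mitotic chromosomes and is the gene of the Ki-67 stain, stood at 387 CPM (381 to 394) in the knockout against 338 (332 to 343) in the control library, a log2 ratio of 0.20. Top2a, the topoisomerase that untangles chromosomes, went the other way at 412 (405 to 419) and 528 CPM (521 to 534), -0.35, and the condensin gene Smc4 was level at 0.00. The kinesin motors had a summed ratio of 1.06 (1.04 to 1.09), with Kif11, the motor that pushes spindle poles apart, at 178 (173 to 182) and 149 CPM (146 to 153), 0.24. All 4 cytokinesis genes lay above 0, with a ratio of 1.20 (1.17 to 1.22). Anln, which ties actin to the contractile ring, stood at 54.7 (52.3 to 57.2) and 41.9 CPM (40.1 to 43.8), 0.35, and Diaph3, a formin that builds actin filaments, at 236 (231 to 241) and 186 CPM (182 to 190.003), 0.33. These higher values depend on the scaling: 9 of 34 genes lay above 0 with totals, 6 when sums were scaled by the median ratio of all genes, and 2 when each cell had the same weight. With equal weight per cell Mki67 was at -0.14, Kif11 at -0.06, Anln at 0.00 and Diaph3 at 0.10, while Cdk1, Ccnb1 and Ube2c were at -1.10, -1.01 and -0.92.

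**Figure D3:**
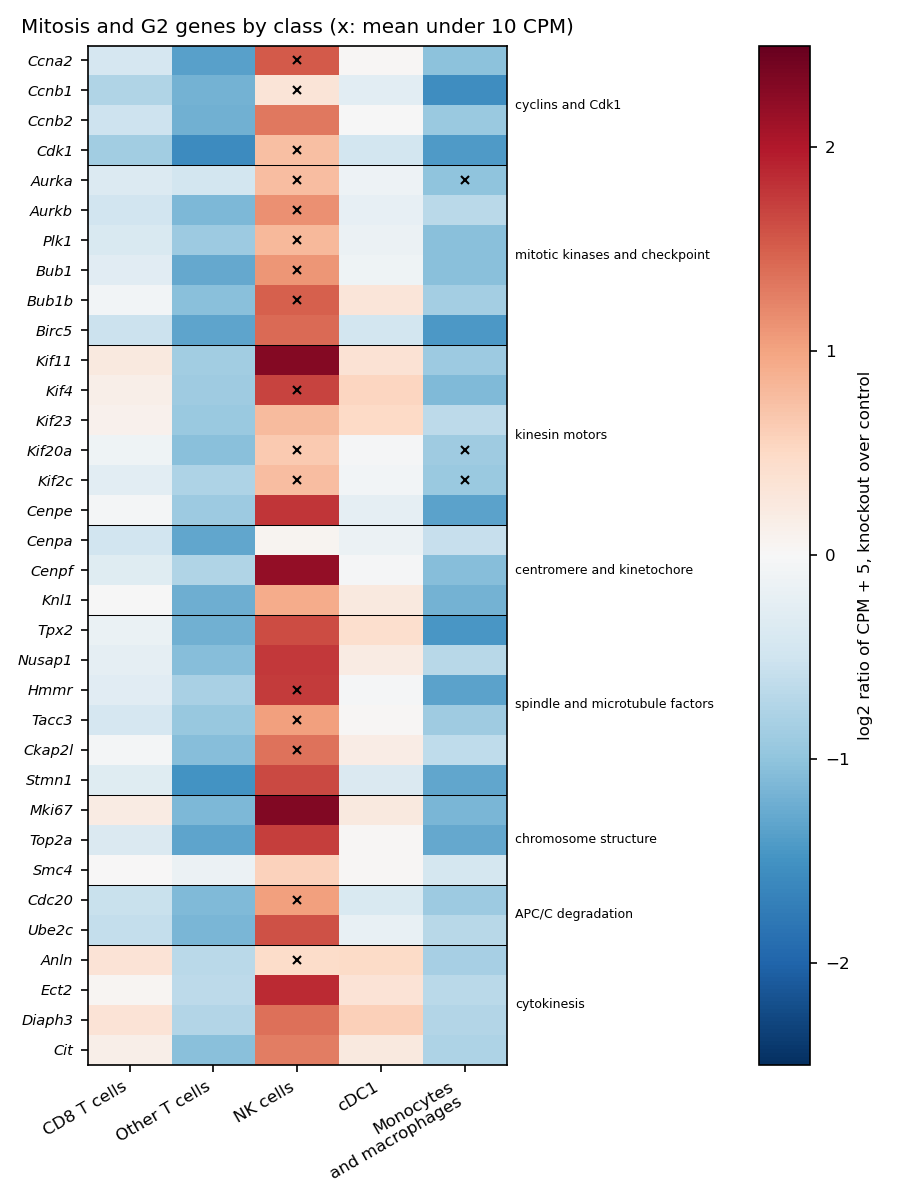
Log2 ratio of CPM + 5, knockout over control (colour), for each of the 34 genes (rows, grouped by role) in 5 cell classes (columns); a cross marks a mean below 10 CPM. Monocytes and macrophages and other T cells are blue throughout, NK cells red, and CD8 T cells and cDC1 run from blue for Cdk1 to red for Diaph3.

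The order of the genes in CD8 T cells largely followed the length of the gene. Over the 34 genes the Spearman correlation between the log2 ratio and the genomic span (GENCODE vM21) was 0.77, given as a description, since the values share the same 2 libraries. The 11 genes with spans in the longest 25% of all genes (over 34.8 kb) had a median of 0.05, with 6 above 0, and the other 23 a median of -0.35, with 3 above 0. Cdc20 (4.45 kb), Ccnb1 (7.92 kb) and Ube2c (8.93 kb) are among the shorter genes, and Anln (57.2 kb) and Diaph3 (486 kb) among the longer. Other genes departed from this order, with Kif20a (8.665 kb) at -0.11 and Mki67 (26.6 kb) at 0.20. Cdk1, the lowest, spans 17.8 kb, more than Cdc20, Ccnb1 and Ube2c. The same direction was present over all genes of CD8 T cells, where those in the shortest 25% of spans (under 4.18 kb) had a median of -0.32 and those in the longest 25% a median of 0.44. In monocytes and macrophages the all-gene medians were -0.41 and 0.30, but the correlation over the 34 genes was 0.04. It was 0.74 in cDC1, 0.47 in other T cells and 0.35 in NK cells. What part gene length has in the ratio of any single gene was not tested.

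**Figure D4:**
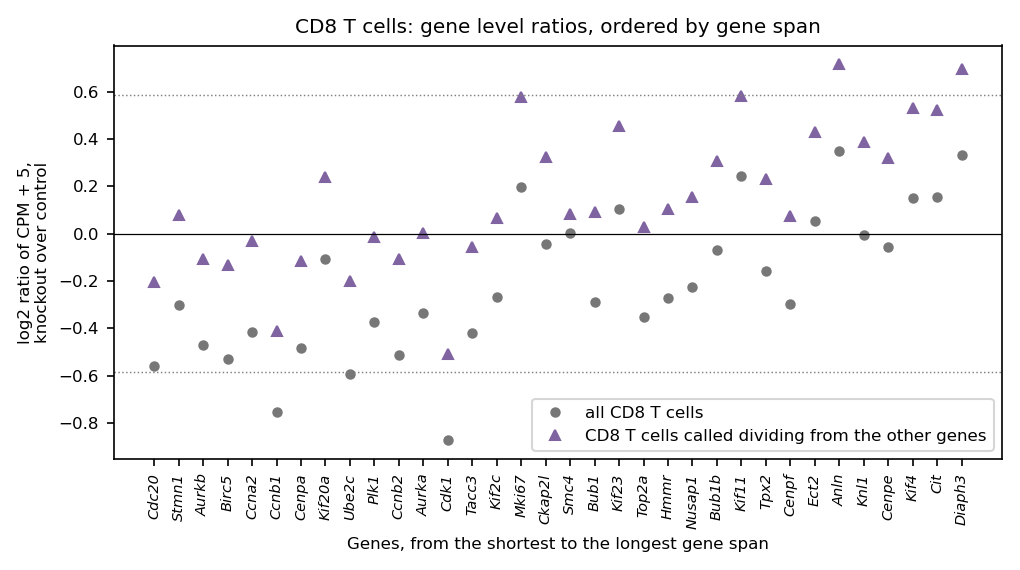
Log2 ratio of CPM + 5, knockout over control (y axis), for the 34 genes in CD8 T cells ordered from the shortest to the longest gene span (x axis): circles are all CD8 T cells and triangles are those called dividing from the other genes. The dotted lines are 1.5-fold; Cdk1 and Ccnb1 are the lowest in both sets, and Anln and Diaph3 the highest.

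Within dividing CD8 T cells the genes lay on both sides of 0. The 11 longest genes all lay above 0, as did 12 of the other 23. The share of all genes of such lengths above 0 is not given here. Long genes as a whole also ran higher in CD8 T cells, so these counts are a description only. Each gene was measured in cells called dividing from the other 33 genes. Of the 34, 0 were lower past 1.5-fold, against 4.68% of all genes, and 2 were higher, against 11.2%, with a median of 0.09 beside 0.12 for all genes. Anln stood at 101 (96.1 to 106) and 59.4 CPM (56.8 to 62.1), 0.72, and Diaph3 at 422 (413 to 432) and 259 CPM (254 to 265), 0.69. Cdk1 remained below 0 at 155 (149 to 161) and 222 CPM (217 to 227), -0.51, and so did Ccnb1 at 72.2 (68.3 to 76.3) and 97.8 CPM (94.4 to 101), -0.41. Mki67 stood at 723 and 483 CPM (0.58) and Top2a at 762 and 747 CPM (0.03). At 3000 UMIs per cell, Cdk1 was seen in 28.6% (25.1 to 32.3) of the 626 knockout cells and 39.9% (36.7 to 43.2) of the 912 control cells with at least 4 of the other genes. Mki67 was seen in 77.7% (74.2 to 81.004) of 602 and 65.6% (62.4 to 68.7) of 892. Cells called from all 34 genes had 2.23 UMIs of the 34 genes per UMI of 32 S-phase genes in the knockout against 2.06 in the control library. The call uses the 34 genes, so cells with S-phase RNA but few of the 34 are left out. That balance is a description only.

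The genes were seen together in the same cells. Among knockout CD8 T cells with UMIs of at least 4 of the other genes, Ccna2 was seen in 29.4%, and among those with none of the others in 0.559%. For Tpx2, which activates Aurora A on the spindle, these shares were 37.3% and 0.280%. Smc4 stood apart from the rest, with 70.95% and 41.1% in the knockout and 69.8% and 34.6% in the control library. Kif23, a motor of the central spindle, was seen in 20.8% of knockout and 14.6% of control neutrophils, where no other gene of the 34 passed 12.5% in either library. Kif23 UMIs in neutrophils numbered 43 and 26, of 121 UMIs of the 34 genes in the knockout library. In cDC1 with none of the other genes it was seen in 9.92% of knockout and 5.26% of control cells. Transcripts that overlap Kif23 were not looked for here.

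Summed over all monocytes and macrophages, the whole set was lower in the knockout library. The summed level was 687 CPM in the knockout against 1524 in the control library, a ratio of 0.450 (0.440 to 0.460), and 34 of 34 genes lay below 0. Of the 31 measured at 10 CPM or more, 30 were lower past 1.5-fold, where 14.9% of all genes were, and 0 were higher, where 16.2% were, with a median of -0.92 beside 0.02 for all genes. Some of the 31, such as Ccnb1 and Ckap2l, reached a mean of 10 CPM only through the control library, so this count is a description only. With no minimum CPM, 33 of 34 were lower past 1.5-fold. The 3 genes under 10 CPM, Aurka, Kif20a and Kif2c, were at -1.01, -0.88 and -0.93. The cyclins and Cdk1 again had the lowest summed ratio, 0.344 (0.315 to 0.375), but no group was above 0.561. Parts of the class did not share this direction. In cells called dividing from the other genes, 8 of the 11 longest genes (median 0.25) and 15 of the other 23 (0.23) lay above 0. In monocyte-scored cells 8 of 11 (0.14) and 11 of 23 (-0.12) did. The share of all genes above 0 in these cells is not given here.

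Ccnb1 showed the largest gap, at 4.88 CPM (3.72 to 6.30) in the knockout against 23.9 (22.8 to 25.1) in the control library, a log2 ratio of -1.55. Tpx2 stood at 13.1 (11.1 to 15.3) and 44.3 CPM (42.8 to 45.8), -1.45. Birc5 stood at 23.2 (20.5 to 26.1) and 71.1 CPM (69.2 to 73.0), -1.43, and Cdk1 at 14.8 (12.7 to 17.2) and 48.2 CPM (46.6 to 49.8), -1.42. On the CPM scale these genes were 3.07-fold (Birc5) to 4.90-fold (Ccnb1) lower. Stmn1 (61.4 and 159 CPM, -1.31), Top2a (58.7 and 149 CPM, -1.28) and Mki67 (55.4 and 128 CPM, -1.14) differed by somewhat less. The smallest gaps were those of Smc4 (87.9 and 121 CPM, -0.44), Cenpa (38.7 and 60.5 CPM, -0.59) and Ckap2l, a spindle pole protein (8.94 and 16.5 CPM, -0.63). In cells of 3000 or more UMIs, those called dividing held 67.9% of the UMIs of the 34 genes in the knockout against 82.4% in the control library. In the other cells of that depth the ratio was 0.682 (0.655 to 0.710). Those cells were picked by having few of these same genes, so that ratio is a description only.

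Other T cells differed in the same way, with a summed level of 1652 CPM in the knockout against 3478 in the control library, a ratio of 0.475 (0.464 to 0.487). The make-up of this residual class differed too: Cd8a and Cd8b1 made up 229 and 397 CPM, the CD4 markers Cd4 and Cd40lg 158 and 88.0 CPM, and the 6 macrophage markers 33.7 and 189 CPM. Above these sets stood the regulatory T cell markers Foxp3, Il2ra and Ikzf2, at 2058 and 1827 CPM. Gamma-delta T cell markers made up 125 and 132 CPM. Their part in the result was not tested. Of the 34 genes, 32 were lower past 1.5-fold, where 13.5% of all genes were, and 0 were higher, where 17.3% were, with a median of -1.05 beside 0.11 for all genes. Cdk1 stood at 29.1 and 96.4 CPM (-1.57), Stmn1 at 117 and 339 CPM (-1.49) and Ccna2 at 19.0 and 56.3 CPM (-1.35). The other named genes followed, with Top2a at 138 and 353 CPM, Birc5 at 52.5 and 138 CPM, Ccnb1 at 18.8 and 49.2 CPM and Mki67 at 139 and 308 CPM. Ect2, which activates RhoA at the division plane, stood at 26.3 and 44.2 CPM (-0.65). The 2 genes within 1.5-fold were Aurka (11.6 and 17.9 CPM, -0.46) and Smc4 (291 and 321 CPM, -0.14). Smc4, seen in 49.0% and 48.4% of these cells, was thus close to level where the others were not.

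In cDC1 the direction of the summed level depended on the processing. The summed levels were 2600 CPM in the knockout against 2488 in the control library, a ratio of 1.05 (1.02 to 1.07), which was 0.978 with median-ratio scaling, 0.935 with equal weight per cell and 0.959 (0.934 to 0.984) with the 20% limit. In cDC1 of 3000 or more UMIs that were not called dividing it was 0.672 (0.613 to 0.738), with 30 of 34 genes lower. Those cells were picked by having few of these same genes. The share of all genes lower in them is not given here, so both values are a description only. Over all cDC1 the median of the 34 genes was 0.00, with 17 on each side. None was lower past 1.5-fold (0 of 34, against 5.99% of all genes) and 1 was higher (against 12.2%), Diaph3 at 171 (161 to 182) and 112 CPM (101 to 125), 0.59. That gene lay at the cut: none was higher with median-ratio scaling, equal weight per cell, no doublet removal, the 20% limit or 1 more marker needed. Kif4, a chromosome-bound motor (52.3 and 34.4 CPM, 0.54), and Kif23 (122 and 84.4 CPM, 0.50) came next. At the other end were Birc5 (78.9 and 111 CPM, -0.46), Cdk1 (54.7 and 76.6 CPM, -0.45) and Cdc20 (14.8 and 20.9 CPM, -0.39). Mki67 (278 and 233 CPM), Top2a (284 and 279 CPM), Stmn1 (220.4 and 284 CPM) and Ccnb1 (15.3 and 19.3 CPM) lay between.

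NK cells had higher levels in the knockout library, but this rested on few cells. The summed level was 993 CPM in the knockout against 326 in the control library, a ratio of 3.04 (2.80 to 3.31), from 7148 and 592 UMIs. Mki67 stood at 86.0 (79.4 to 93.1) and 13.2 CPM (8.48 to 19.7), 2.32, Kif11 at 30.6 and 2.21 CPM, 2.30, and Cenpf, a kinetochore protein, at 35.6 and 3.86 CPM, 2.20. Cenpa was nearly level at 39.5 and 37.5 CPM, 0.07, with Smc4 at 0.58 and Kif23 at 0.79. Only 18 of the 34 genes reached 10 CPM, largely through the knockout library, and 16 of these were higher past 1.5-fold, where 8.09% of all genes were, and 0 lower, where 5.16% were. With equal weight per cell 3 of 11 measured genes were higher, and with no doublet removal 7 of 24. The share over all genes was not counted in either setting. A gene that reached 10 CPM only through the knockout library had to differ, so the count of 16 is a description only. The 21 NK cells called dividing held 72.5% of the knockout UMIs of the 34 genes in cells of 3000 or more UMIs, and the 3 control cells 4.27%. In NK cells of that depth that were not called dividing the levels were 297 and 308 CPM, a ratio of 0.965 (0.877 to 1.06). The call uses these same 34 genes and so limits those levels in both libraries. With the cells removed as doublets put back, the ratio over all NK cells was 1.41 (1.33 to 1.48), at 1119 and 796 CPM. Mki67 was seen in 4.16% and 4.15% of NK cells at 3000 UMIs, so the share of cells does not follow the CPM. Macrophage markers made up 27.7 CPM of knockout and 227 CPM of control NK cells, and their part in the result was not tested.

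Doublet removal took dividing cells more often than others. Among the cells it removed, 32.4% in the knockout against 41.2% in the control library would have been called dividing, against 14.8% and 23.7% of the cells analysed. The mitochondrial limit likewise removed cells of which 27.0% and 47.1% would have been called. In the cells that fitted no class, the shares were 11.3% (9.74 to 13.0) and 11.0% (8.997 to 13.3), close to each other.

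Other genes of the cell cycle were counted from lists made for this comparison. In CD8 T cells, 3 of 48 measured genes from 50 other G2 and M genes were lower past 1.5-fold, where 7.27% of all genes were, and 0 were higher, where 17.3% were, with a median of -0.07 beside 0.14 for all genes. Cks1b, a CDK-binding subunit (102 and 171 CPM, -0.71), and Cenpw (59.9 and 97.3 CPM, -0.66) were lowest, and Cdc25b, a phosphatase that activates CDK1 (52.8 and 40.7 CPM, 0.34), and the condensin gene Ncapd2 (85.7 and 72.8 CPM, 0.22) highest. Of 32 S-phase genes, all measured, 6 were lower and 0 higher, with a median of -0.23. The nucleotide synthesis genes Tyms (60.2 and 112 CPM, -0.84) and Rrm2 (65.8 and 112 CPM, -0.73) were lowest. The DNA polymerase gene Pola1 (245 and 175 CPM, 0.48) and the helicase gene Mcm6 (181 and 166 CPM, 0.12) were highest.

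Genes of G1 and inhibitors in CD8 T cells were counted in the same way. Against the same 7.27% and 17.3% of all genes, of 13 measured G1 genes 1 was lower, Cdk4, the G1 kinase (67.5 and 109 CPM, -0.66), and 1 higher, Ccnd3, the cyclin D3 of lymphocytes (445 and 108 CPM, 2.00). Myc was at -0.43 and Ccnd2 at 0.37. Of 13 measured inhibitors, 3 were lower and 0 higher. Cdkn1a, the gene of the CDK inhibitor p21 and a target of p53, stood at 5.36 and 83.2 CPM (-3.09) from 185 and 3950 UMIs, and Cdkn2a at 8.92 and 29.5 CPM (-1.31). Both reached a mean of 10 CPM only through the control library. Cdkn1b, the gene of the CDK inhibitor p27, was at 0.52 and Rb1, the retinoblastoma gene, at 0.58.

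In monocytes and macrophages, 21 of 28 measured other G2 and M genes were lower, where 14.9% of all genes were, and 0 higher, where 16.2% were, with Cdca8 (-1.42) and Smc2 (-1.32) lowest and Espl1 (0.39) and Cks2 (0.04) highest. Of 24 measured S-phase genes 21 were lower, led by Tk1 (11.2 and 44.2 CPM, -1.61), with Slbp (-0.26) and Pola1 (-0.20) at the other end. The lower levels covered DNA synthesis and mitosis alike. Of 10 measured G1 genes 2 were lower and 1 higher: Ccnd1, cyclin D1, stood at 64.9 and 212 CPM (-1.64), Cdk4 at 26.9 and 65.7 CPM (-1.15) and Ccnd3 at 328 and 58.2 CPM (2.40), with E2f2 at 0.27. Of 12 inhibitors, against those same shares, 1 was lower, Cdkn2c (9.02 and 18.7 CPM, -0.76), and 3 were higher, led by Btg2, an antiproliferative gene (395 and 116 CPM, 1.72), and Rb1 (239 and 129 CPM, 0.86), while Cdkn2d was at -0.51. Cdkn2c reached a mean of 10 CPM only through the control library.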

How the data were processed

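The deposited values were counts of UMIs per gene and cell barcode, whole numbers made by the authors with the 10x software Cell Ranger (version 7.2.0, per the file headers). The build was mm10, per the submitters' processing notes; the annotation was not given in the sources used here. The other deposited files hold gene names and barcodes. Cells with at least 200 genes and under 10% mitochondrial UMIs were kept. Scrublet (scanpy 1.11.5) marked 0% of knockout and 1.28% of control cells as doublets, so its highest scores were removed at 0.8% per 1000 barcodes (635 and 820 cells). A class needed 2 markers, a score of 0.25 (mean scaled log expression of its markers), and a runner-up at 0.6 of it or less. CD8 T cells needed 2 UMIs of Cd8a and Cd8b1 and none of Cd4 or Foxp3. These limits were set after class sizes were seen. Levels are UMIs summed per class and library, as CPM with a pseudocount of 5, for classes of at least 100 cells per library in every count of genes past 1.5-fold. Shares used cells of 3000 UMIs or more. Only the log2 ratio of summed counts was tested on simulated data. The gate, the doublet removal and the dividing call were not.

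The 34 genes and all lists were chosen with earlier results of these data known. Named were Mki67, Top2a, Ccnb1, Cdk1, Birc5 and Stmn1, the 3 highest and 3 lowest measured genes per class and the 2 highest and 2 lowest of each list; others named as examples of their role were chosen after their values were seen, and 1 gene of a list is not reported here. Spans came from GENCODE vM21 (GRCm38), promoters from RefSeq GRCm38.p6. The promoter words and windows were chosen with the results known. Alternatives covered thinning, the call, doublets, the mitochondrial limit, gating, scaling, cell weight, pseudocount and low filter. Python 3.11.15, numpy 2.4.6, pandas 2.3.3, scipy 1.17.1 and matplotlib 3.10.9 were used.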

Additional observations from a re-analysis of the deposited data

Results flagged for a closer look

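The summed level of the 34 genes went in opposite directions in different cell classes. It was higher in the knockout library in NK cells, with a ratio of 3.04, and lower in other T cells, with a ratio of 0.475, and in monocytes and macrophages, with a ratio of 0.450. In B cells the ratio was 1.64 (1.44 to 1.87), from 659 and 352 UMIs, and 0.689 in B cells of 3000 or more UMIs not called dividing. In mature dendritic cells it was 1.01 (0.925 to 1.11). The difference between the classes was not tested, since each group has 1 library. In NK cells of 3000 or more UMIs that were not called dividing the ratio was 0.965. The call uses these same 34 genes, so the ratios in NK and B cells not called are a description only.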

How the results depend on the processing

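No paired analysis was possible because each group has 1 library. The ratio of dividing shares stayed on its side of 1 under all alternatives run in CD8 T cells (0.585 to 0.672), other T cells (0.268 to 0.523), monocytes and macrophages (0.229 to 0.406) and cDC1 (0.678 to 0.893), and ran from 0.856 to 3.03 in NK cells. Without thinning it was 0.523 in other T cells and 0.406 in monocytes and macrophages. In NK cells, thinning to 1500 UMIs, a call from 6 genes and leaving out Stmn1, Smc4 and Cit gave no ratio, because no control cell was called. The ratio of summed levels moved past its counting interval with median-ratio scaling (0.773 in CD8 T cells, 0.437 in other T cells), with equal weight per cell (0.714, 0.405 and, in NK cells, 1.49), with no doublet removal (0.527 in other T cells, 1.41 in NK cells, 0.462 in monocytes and macrophages), with a mitochondrial limit of 20% (0.854 in CD8 T cells, 0.425 in monocytes and macrophages) and with 1 more marker needed (0.886 in CD8 T cells). In cDC1 it turned from 1.05 to 0.978 with median-ratio scaling, 0.935 with equal weight per cell and 0.959 with the 20% limit; the cause was not tested. Shares over all genes past 1.5-fold were counted with the main settings only, so the counts that follow have no such baseline. Genes lower past 1.5-fold in CD8 T cells numbered 3, but 8 with median-ratio scaling and 15 with equal weight per cell. With equal weight they numbered 1 in NK cells and 2 in cDC1, from 0 in each. In monocytes and macrophages they were 30 of 31 measured, 20 of 24 with equal weight and 33 of 34 with no minimum CPM, and in other T cells 32 of 34, 30 of 32 with equal weight and 27 of 34 with no doublet removal. Genes higher in NK cells numbered 16 of 18, but 3 of 11 with equal weight and 7 of 24 with no doublet removal. Depth limits the classes with few control cells, such as B cells and NK cells, with 352 and 592 control UMIs of the 34 genes.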
